A study of Bos taurus with 2 samples.

Results

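The genes described here are 9 contractile genes of heart muscle and NKX2-5, a list of 10 given by name: TNNT2, TNNC1, TNNI1, TNNI3, MYL4, MYL7, MYH6, ACTC1, MYOZ2 and NKX2-5. All 10 were found by symbol among the 17846 genes of the count table. They were measured by single-cell RNA sequencing (10x Genomics 3′ chemistry) in chimeric bovine embryos at day 25, which carried cells of bovine embryonic stem cells. There was 1 group, with 2 libraries named replicate 1 and replicate 2, and no embryo without stem cells was used here. The cells had been sorted after dissociation. The gate of the sort, the number of embryos in a library and what the GFP transcript in the table marks are not given in the sources used here, so it is not known whether the sort changed the share of heart cells. The labels do not say that the libraries came from separate embryos, so the spread between them may be technical.

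A sarcomere is the contractile unit of striated muscle, in which thick filaments of myosin pull on thin filaments of actin. Troponin sits on the thin filament and makes the pull depend on calcium: TNNC1 binds calcium, TNNI1 and TNNI3 are inhibitory subunits, and TNNT2 ties the complex to tropomyosin. In mouse and human hearts MYL4, MYL7 and MYH6 are known as genes of the early and atrial myocardium, while MYL2, MYL3 and MYH7 are prominent in the ventricle. ACTC1 encodes cardiac alpha-actin, MYOZ2 a protein of the Z-disc at the border of the sarcomere, and NKX2-5 a homeobox transcription factor of cardiac progenitors and heart muscle.

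The 1973 barcodes of replicate 1 summed to 11182089 UMI, and the 2464 barcodes of replicate 2 to 15427708 UMI. A UMI (unique molecular identifier) counts a captured transcript once, however often it was sequenced. Barcodes with at least 500 genes and 1000 UMI were kept, which left 1843 and 2316. Barcodes were grouped by marker lists that hold none of the 10 genes. The groups held 9 and 20 erythroid, 47 and 100 mesenchyme, 11 and 13 trophoblast, 358 and 401 neuron and 1019 and 1313 neural progenitor barcodes, with 398 and 469 left unassigned. Each named group led in the summed level of its own marker list, the erythroid list for example at 2106 and 2872 CPM in erythroid barcodes and at 18.7 CPM or less in every other group. The same lists had selected the barcodes, so this lead follows from the grouping and is no check of it. No barcode reached the endothelial minimum. In all, 6 barcode sequences occurred in both libraries, and neither of the cardiac barcodes described next was among them. Levels are given as CPM, the UMI of a gene per 1000000 UMI summed over the barcodes of a group. They count 3′ ends and are not divided by transcript length.

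Heart muscle was represented by a single barcode in each library. In replicate 1, 1 barcode held all 10 genes and 12 of the 16 other cardiac markers, and it was the only barcode of the series to reach the minimum of 4 markers. In replicate 2 no barcode reached it, but 1 barcode held 8 of the 10 genes. That barcode was picked after the data had been seen, as the only barcode of its library with 5 or more of them. It held 2 of the 16 markers, 5 UMI of CSRP3 and 1 of HSPB7, and had 1820 UMI in all, against 8692 UMI in the barcode of replicate 1. Both had 0 UMI of GFP. With 1 barcode a library there is no spread between cells, and the 95% intervals given for levels are exact Poisson ones, for counting error alone.

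The 10 genes made up 596 of 8692 UMI (6.86%) in the cardiac barcode of replicate 1 and 114 of 1820 UMI (6.26%) in that of replicate 2. Of the troponin genes, TNNT2 had 59 and 18 UMI, or 6788 CPM (interval 5167 to 8756) and 9890 CPM (5862 to 15631). TNNC1 had 90 and 17 UMI. The intervals of the libraries overlapped for both genes. Of the inhibitory subunits, TNNI1 had 27 and 0 UMI, and TNNI3 had 37 and 3 UMI. The intervals of TNNI3 overlapped, at 2997 to 5867 CPM and 340 to 4817 CPM. For TNNI1 the interval of replicate 1 (2047 to 4520 CPM) lay above the whole interval of replicate 2, which ended at 2027 CPM.

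Of the myosin genes, the regulatory light chain MYL7 had the most UMI of the 10 in both barcodes, 152 and 30, which were 25.5% and 26.3% of the UMI of the 10 genes. The essential light chain MYL4 had 72 and 19 UMI. The heavy chain MYH6 had 52 UMI in the barcode of replicate 1 and 0 in that of replicate 2, where the interval ended at 2027 CPM, below the 4468 CPM at which the interval of replicate 1 began. ACTC1 had 79 and 23 UMI, MYOZ2 had 12 and 3 UMI, and NKX2-5 had 16 and 1 UMI. The intervals of the barcodes overlapped for MYL7, MYL4, ACTC1, MYOZ2 and NKX2-5 and were apart for MYH6.

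They also differed in the ventricular light chains. MYL2, the ventricular regulatory light chain, had 1 UMI in the cardiac barcode of replicate 1 and 28 UMI in that of replicate 2. MYL3, the ventricular essential light chain, had 2 and 10 UMI. The intervals were apart for both, at 2.91 to 641 and 10223 to 22235 CPM for MYL2 and at 27.9 to 831 and 2635 to 10105 CPM for MYL3. MYH7, the heavy chain of ventricle and slow muscle, had 4 and 0 UMI, and its intervals overlapped. The MYL2 and MYL3 counts of replicate 2 came from the shallower barcode, where the same 2 genes made up 15385 and 5495 CPM, against 115 and 230.1 CPM in the deeper one. MYL2 and MYL3 each had 0 UMI in all erythroid, mesenchyme, trophoblast, neuron and neural progenitor barcodes of both libraries. The unassigned barcodes of replicate 2, which include its cardiac barcode, had 29 UMI of MYL2 and 11 of MYL3.

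**Figure D1:**
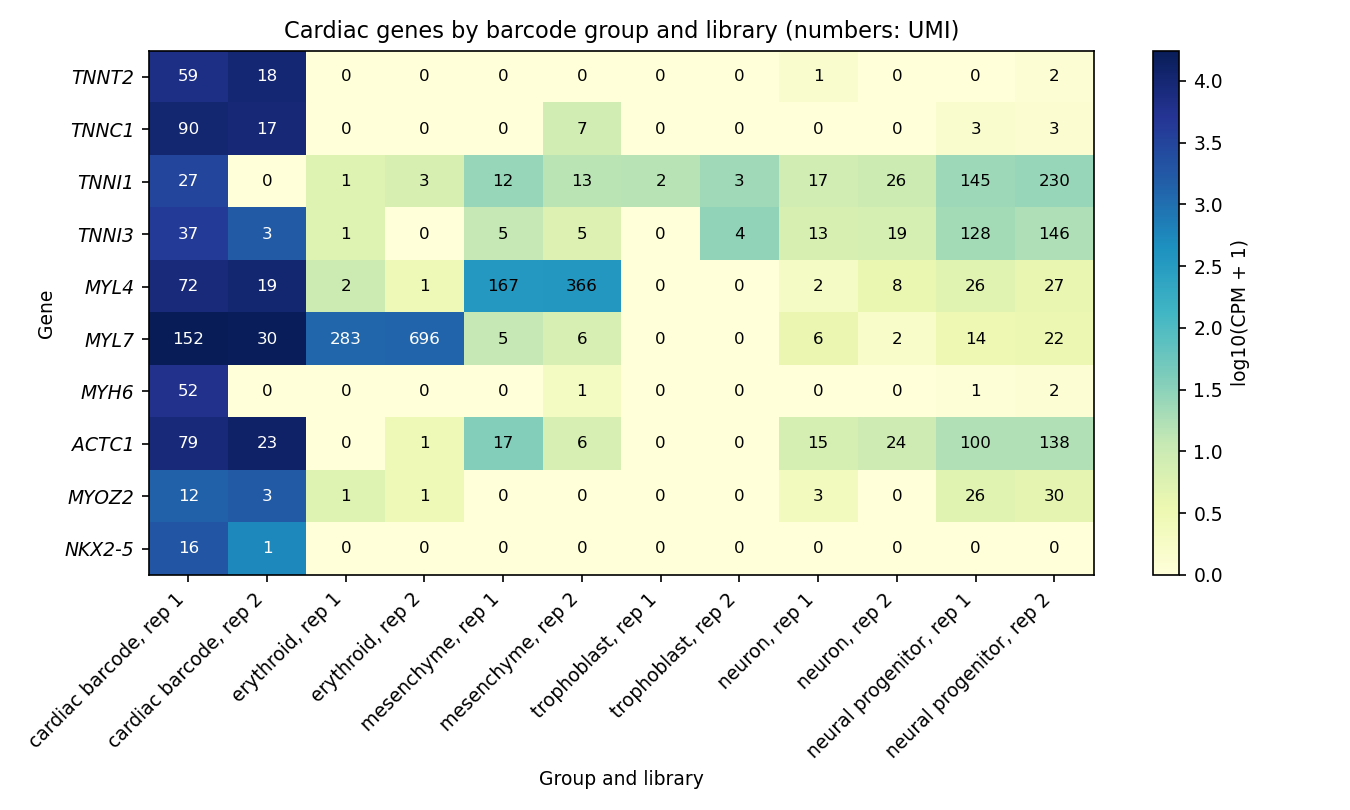
Level of each of the 10 genes (rows) in the cardiac barcode of each library and in the marker groups (columns), coloured by log10(CPM + 1), with the UMI printed in each cell. All genes but TNNI1 and MYH6 are dark in both cardiac barcodes, MYL7 is dark again in erythroid barcodes (283 and 696 UMI) and MYL4 in mesenchyme barcodes (167 and 366 UMI), and NKX2-5 is at 0 in every other group drawn.

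Other heart genes accompanied the 10 in the barcode of replicate 1. Over all genes measured, 18.4% had a UMI in it. Of 16 cardiac transcription factors 8 had a UMI, among them GATA6 with 9, TBX5 and MYOCD with 6 each and GATA4 with 4 UMI, all regulators of heart formation in mouse. Of 14 genes of calcium handling and conduction 7 had a UMI, including the sodium-calcium exchanger SLC8A1 with 82 and the ryanodine receptor RYR2 with 22 UMI. By the call described next, 5 of the 16 factors and 3 of the 14 calcium genes were high in this barcode. The giant sarcomere protein TTN had 43 UMI, tropomyosin TPM1 had 51 and the intermediate filament gene DES had 20. None of the 6 skeletal muscle genes in the table, and none of 5 epicardial and endocardial genes, had a UMI. In the shallower barcode of replicate 2, 1 of the 16 transcription factors (TBX2) and 1 of the 14 calcium genes (PLN) had a UMI, 1 UMI each. That barcode held a UMI of 5.42% of all genes measured, so these list counts were near the share over all genes. At its depth many genes with few UMI could have been missed. SLC8A1 and TTN also had 0 UMI there, where a count of 0 allows up to 2027 CPM. Their levels in the barcode of replicate 1 were 9434 and 4947 CPM.

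A gene was called high in a cardiac barcode when it had at least 3 UMI and at least 10 times the CPM of the neuron and neural progenitor barcodes of the same library. Where those held fewer than 3 UMI, they were set to 3. This call has no replicate check. By it, 109 of 13593 genes (0.802%) were high in the barcode of replicate 1 and 34 of 13837 (0.246%) in that of replicate 2. All 10 genes were called in replicate 1 and 7 in replicate 2, the other 3 being TNNI1 and MYH6 with 0 UMI and NKX2-5 with 1 UMI. The barcode of replicate 2 was picked for holding 5 or more of these genes, so its count is given as a description only. Other genes called in the barcode of replicate 1 included MLIP with 12 UMI, the conduction-related TECRL with 6, BMP2, a signalling ligand, with 5, and FHL2, a LIM-domain protein of striated muscle, with 24. CRIP1 was called in both, with 14 and 3 UMI.

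The genes closest to the summed level of the 10 over 11 group sums were MYBPC3, VCAM1, CRYAB, SYNPO2L and PNMT, each with Pearson's r of 0.99 on log2(CPM + 10). MYBPC3, CRYAB and SYNPO2L are genes of the muscle sarcomere or its chaperones, and VCAM1 and PNMT were not counted among these. This likeness is a description over sums that share libraries, and it rests on the 1 sum that is the cardiac barcode of replicate 1. MYBPC3 and SYNPO2L were also among the cardiac markers that selected this barcode, so the selection itself favoured their likeness.

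Within barcodes, co-detection fell into separate ranges. In replicate 1, 1447 kept barcodes held none of the 10 genes, 332 held 1, 57 held 2 and 6 held 3, and the next held 10. In replicate 2 the counts were 1765, 452, 84 and 14, and the next barcode held 8. No barcode of either library held 4 to 7, which with these numbers of barcodes allows a share of up to 0.163% and 0.13%.

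**Figure D2:**
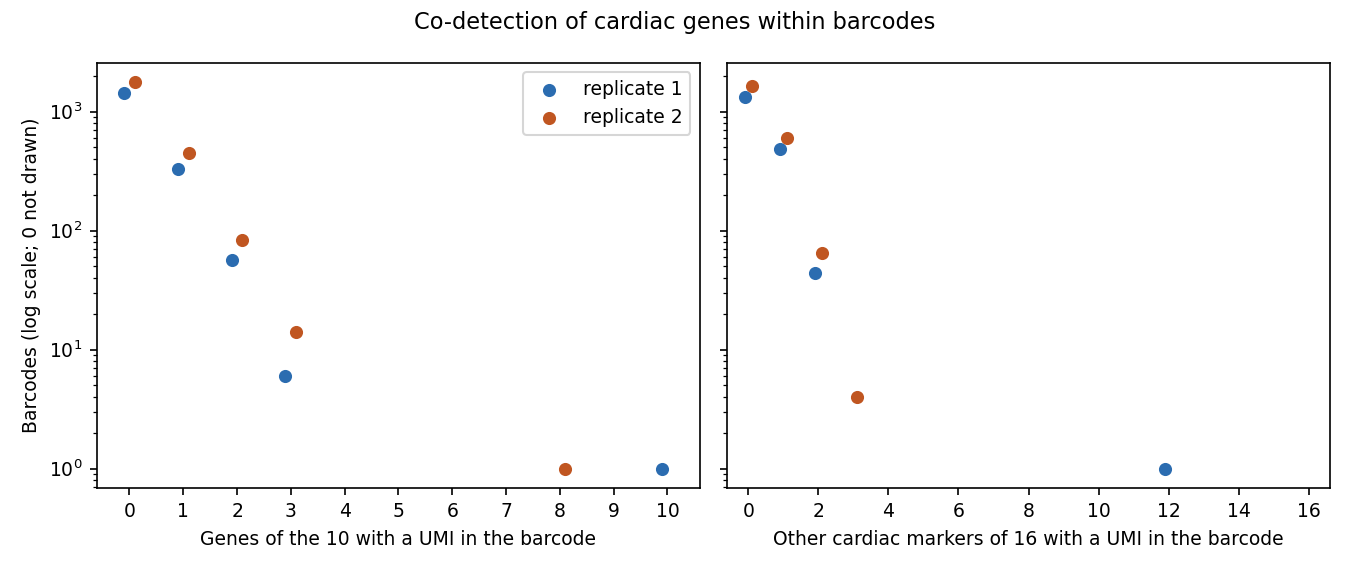
Number of kept barcodes (log scale) by how many of the 10 genes (left) or of the 16 other cardiac markers (right) had a UMI, for each library. A single barcode per library stands apart on the left, at 10 genes in replicate 1 and at 8 in replicate 2, while on the right the barcode of replicate 1 stands at 12 markers and no barcode of replicate 2 passes 3.

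In replicate 1 the genes fell into those found almost wholly in the cardiac barcode and those with most of their UMI elsewhere. TNNC1 and MYH6 did not keep to this in replicate 2, where the cardiac barcode held 53.1% and 0% of their UMI. In replicate 1 it held 95.7% and 96.3%. NKX2-5 had no UMI outside the cardiac barcodes in 4157 barcodes. TNNT2 had 3 UMI outside them in 3 barcodes, and the cardiac barcodes held 98.3% and 90% of its UMI. MYH6 had 6 UMI in 6 other barcodes and TNNC1 had 19 UMI in 13, of which 7 UMI lay in 5 mesenchyme barcodes of replicate 2 and 0 in those of replicate 1. By contrast the cardiac barcode held 32.6% and 3.89% of all MYL7 UMI, 25.9% and 4.44% of MYL4, 34.6% and 11.2% of ACTC1, 18% and 1.46% of TNNI3, and 11.3% and 0% of TNNI1.

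MYL7 was the only one of the 10 that was abundant in erythroid barcodes, in which 48.5% and 50.1% of all UMI came from the embryonic globin genes HBE1, HBE4 and HBZ. It had 283 UMI in the 9 erythroid barcodes of replicate 1 and 696 UMI in the 20 of replicate 2, and every one of the 29 held at least 1. Per barcode the lowest, median and highest counts were 1, 10 and 97 UMI in replicate 1 and 2, 25.5 and 82 UMI in replicate 2. The level was 1250 and 1288 CPM, a mean of 1269 ± 27.1 (SD, n = 2 libraries), against 2.31 ± 0.199 in neural progenitor barcodes. The libraries of the erythroid group lay far above those of the progenitor group. The level was still below that of the cardiac barcodes, which had 17487 and 16484 CPM.

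The fitted log2 fold change over neural progenitor barcodes was 10.76 (SE 0.24) with edgeR's quasi-likelihood test. Its adjusted p was too small to be represented, and limma on the same sums gave an adjusted p of 0.000251. In this contrast 16.8% of 10820 genes tested were called higher and 26.2% lower. Of the other 4 genes that passed the filter on low counts, none was called: TNNI1 had 1 and 3 UMI, TNNI3 1 and 0, MYL4 2 and 1, and ACTC1 0 and 1 in erythroid barcodes. The remaining 5 genes were too low for the filter in every contrast below. TNNT2, TNNC1, MYH6 and NKX2-5 were all at 0 in erythroid barcodes, and of the 16 other cardiac markers 0 and 1 had a UMI there. Erythroid barcodes were also the deepest, with medians of 27366 and 25821.5 UMI, against 5754 and 6576 UMI in progenitor barcodes, and MYL7 was still found in 66.7% and 90% of them after each barcode was thinned to 2000 UMI.

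Outside erythroid barcodes MYL7 was low. Progenitor barcodes had 14 and 22 UMI in 12 and 22 barcodes, and neuron barcodes had 6 and 2 UMI (log2 fold change over progenitors -0.42, SE 0.62, edgeR adjusted p = 0.606). Transcripts of these globins were also found in every group, and MYL7 stood to them in a similar proportion in erythroid barcodes, with 2.58 and 2.57 UMI per 1000 globin UMI, and in progenitor barcodes, with 3.12 and 3.77. In neuron barcodes the libraries differed more, with 4.12 and 1.13 per 1000, and trophoblast barcodes had 0 UMI of MYL7. In mesenchyme barcodes the proportion was 20.4 and 13.1 per 1000, from 5 and 6 MYL7 UMI, and the edgeR fit called MYL7 higher there than in progenitors (log2 fold change 2.31, SE 0.67, adjusted p = 0.00157), but limma did not (adjusted p = 0.0811).

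MYL4 was the only one of the 10 that was abundant in mesenchyme barcodes. It had 167 UMI in 29 of 47 barcodes of replicate 1 and 366 UMI in 57 of 100 barcodes of replicate 2, and the lowest, median and highest counts per barcode were 0, 1 and 14 UMI and 0, 1 and 19 UMI. The level was 354 and 365 CPM, a mean of 360 ± 7.48 (SD, n = 2 libraries), against 3.51 ± 0.721 in neural progenitor barcodes. Both mesenchyme sums lay above both progenitor sums, and the log2 fold change was 7.37 (SE 0.20, edgeR's quasi-likelihood adjusted p = 5.07e-276, limma adjusted p = 0.00271). In this contrast 26% of genes were called higher and 27.4% lower. MYL4 stood to COL1A1, a fibrillar collagen of connective tissue, at 42.8 and 42.6 UMI per 1000 in the libraries. In progenitor barcodes the proportion was 194 and 93.1 per 1000, from 26 and 27 MYL4 UMI.

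**Figure D3:**
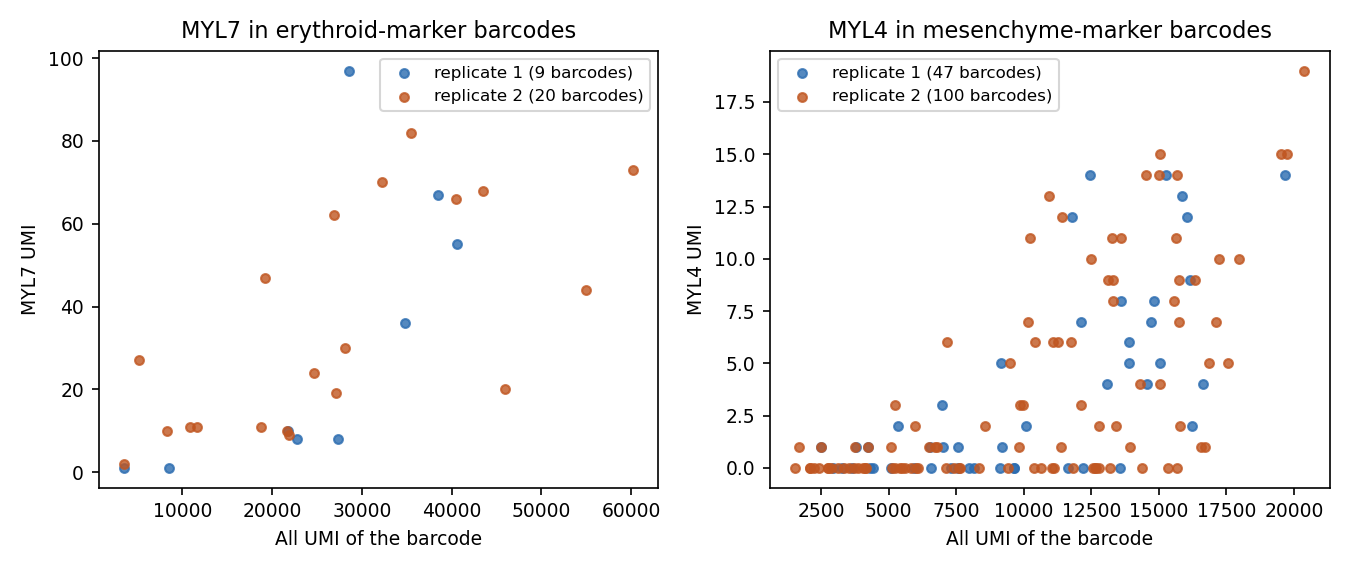
UMI of MYL7 in each erythroid barcode (left) and of MYL4 in each mesenchyme barcode (right) against all UMI of the barcode, coloured by library. Every erythroid barcode has MYL7, with 1 to 97 UMI, while mesenchyme barcodes are split between many at 0 and others that reach 19 UMI, mostly among the deeper ones.

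MYL4 was uneven among mesenchyme barcodes. Those with a UMI of HAND1, a transcription factor of lateral and extraembryonic mesoderm, had 423 and 448 CPM of MYL4, against 108 and 43.7 CPM in those without. Those with a UMI of APOA1, a lipoprotein gene of liver and yolk sac, had 412 and 392 CPM, against 0 and 14 CPM in those without, which were 8 and 9 barcodes. Barcodes with 3 or more neural progenitor markers beside their mesenchyme markers had 172 and 21.6 CPM, against 380 and 420 CPM in the others. A UMI of GFP made no such split, with 399 and 346 CPM in barcodes with it and 294 and 383 CPM in those without. These splits were chosen after the values had been seen and are given with no test. Barcodes with HAND1 were also deeper, with medians of 12453 and 12684 UMI, against 7287.5 and 5482 UMI in those without.

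The mesenchyme barcodes shared heart-related regulators rather than the rest of the sarcomere. Of 16 cardiac transcription factors on a list, 12 were tested and 9 rose over progenitors, among them TBX20, HAND1, MEF2C, HAND2, MYOCD and GATA6, and none fell. The median log2 fold change of the list was 3.77, against -0.12 over all genes tested. GATA6 had 140 and 153 CPM in mesenchyme barcodes, against 0.928 and 0.779 CPM in progenitors. The smooth muscle genes MYL9, TAGLN, SMTN and ACTA2, the 4 tested of 8, were all called higher, with a median of 2.61. The libraries differed for TAGLN, which had 259 and 108 CPM in mesenchyme barcodes, against 131 and 136 CPM in progenitors, so that its plain CPM was lower in replicate 2. Of the 6 tropomyosin and alpha-actinin genes tested, 4 rose: TPM4, TPM2, TPM1 and ACTN1. None of the 10 skeletal muscle genes on the list passed the filter on low counts. In mesenchyme barcodes TNNT2, NKX2-5 and MYOZ2 had 0 UMI, MYH6 had 0 and 1 UMI, and the 16 other cardiac markers summed to 14.9 and 25.9 CPM, against 15877 CPM in the cardiac barcode of replicate 1.

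TNNI1, TNNI3 and ACTC1 were not called in mesenchyme barcodes. ACTC1 had 17 and 6 UMI there, and 15 of the 17 came from 1 barcode. In the reference annotation MYL4 overlaps CDC27, a subunit of the anaphase-promoting complex. CDC27 had 27.6 and 37.9 CPM in mesenchyme barcodes, against 90.3 and 81.3 CPM in progenitors. Plain CPM in place of TMM scaling shifts the median log2 fold change of all genes by -0.69 in this contrast. Whether reads of CDC27 were counted as MYL4 was not tested. Trophoblast barcodes had 0 UMI of MYL4, MYL7 and ACTC1, 2 and 3 UMI of TNNI1 and 0 and 4 UMI of TNNI3, with all 4 of TNNI3 in 1 barcode. None of the 5 genes tested was called there by edgeR, beside 18.7% of genes called higher and 25.7% lower.

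Outside the cardiac barcodes TNNI1, TNNI3 and ACTC1 had most of their UMI in neural progenitor barcodes, each at a low level spread over many barcodes. Those barcodes also held most UMI of all genes, 6464073 of 11086320 kept in replicate 1 and 8990993 of 15322092 in replicate 2. TNNI1, the slow skeletal and early cardiac inhibitory troponin, had 145 and 230 UMI in 97 and 153 progenitor barcodes, or 22.4 and 25.6 CPM. TNNI3, the adult cardiac inhibitory troponin, had 128 and 146 UMI in 78 and 97 barcodes, or 19.8 and 16.2 CPM. ACTC1 had 100 and 138 UMI in 60 and 79 barcodes, or 15.5 and 15.3 CPM. Most barcodes that held one of them held 1 UMI, but the highest barcodes held 5 and 9 UMI of TNNI1, 9 and 7 of TNNI3 and 17 and 13 of ACTC1. MYOZ2 had 26 and 30 UMI, or 4.02 and 3.34 CPM.

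Ordered by level, TNNI1 averaged 24.7 ± 0.677 CPM in unassigned, 24 ± 2.23 in progenitor, 19.2 ± 8.84 in mesenchyme, 17.4 ± 5.29 in trophoblast, 8.08 ± 1.09 in neuron and 4.98 ± 0.803 CPM in erythroid barcodes (SD, n = 2 libraries each). The progenitor and mesenchyme values, and those of mesenchyme and trophoblast, lay within their spreads of each other. TNNI3 averaged 18 ± 2.52 in progenitor, 16.3 ± 2.56 in unassigned, 14.1 ± 19.9 in trophoblast, 7.8 ± 3.98 in mesenchyme, 6.03 ± 0.618 in neuron and 2.21 ± 3.12 CPM in erythroid barcodes, so that its spread was widest where few UMI were counted. The unassigned values include the cardiac barcode of replicate 2, which held 3 UMI of TNNI3 and 0 of TNNI1.

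The mixture of the 10 genes in neural progenitors was unlike that of the cardiac barcodes. TNNI3 made up 28.9% and 24.3% of the UMI of the 10 genes in progenitors (exact binomial intervals 24.7% to 33.4% and 21% to 28%), against 6.21% and 2.63% in the cardiac barcodes (4.41% to 8.46% and 0.546% to 7.5%). TNNI1 made up 32.7% and 38.3%, against 4.53% and 0%. TNNT2 made up 0% and 0.333% in progenitors, against 9.9% and 15.8%. In the cardiac barcode of replicate 1 there were 62.7 UMI of TNNI3 per 100 of TNNT2, whereas progenitors of that library had 128 of TNNI3 and 0 of TNNT2. TNNC1, the calcium-binding partner of both inhibitory subunits, had 3 and 3 UMI in progenitors.

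**Figure D4:**
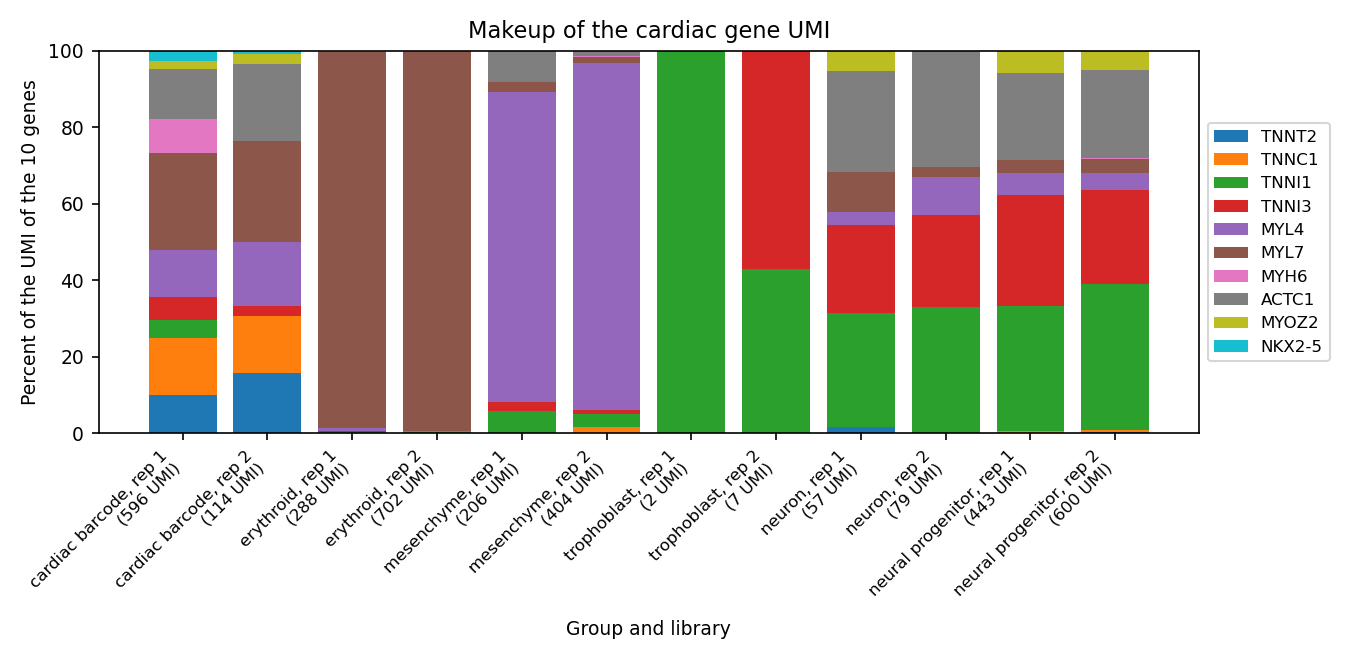
Share of each gene among the UMI of the 10 genes, for the cardiac barcode of each library and for each marker group, with the number of UMI under each bar. MYL7 fills the erythroid bars and MYL4 most of the mesenchyme bars, while TNNI1, TNNI3 and ACTC1 make up most of the neuron and progenitor bars, and the trophoblast bars rest on 2 and 7 UMI.

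Neurons had less of these 3 genes than progenitors in both libraries. TNNI1 had 7.32 and 8.85 CPM in neuron barcodes, against 22.4 and 25.6 CPM in progenitors (log2 fold change -1.38, SE 0.28, edgeR adjusted p = 3.32e-06). TNNI3 had 5.6 and 6.47 CPM in neurons, against 19.8 and 16.2 CPM (-1.37, SE 0.32, edgeR adjusted p = 7.18e-05). ACTC1 had 6.46 and 8.17 CPM, against 15.5 and 15.3 CPM (-0.88, SE 0.31, edgeR adjusted p = 0.012). The libraries of the groups did not overlap for any of the 3. In this contrast 24.7% of genes were called higher and 23.7% lower, so a call was common. None of the 3 calls held with limma, with adjusted p of 0.471, 1 and 1, and only that of TNNI1 held with DESeq2. MYL4 (adjusted p = 0.3) and MYL7 were not called by edgeR. Of the 6 tropomyosin and alpha-actinin genes tested, TPM1, TPM2, ACTN1 and ACTN4 fell in neurons and none rose. The median log2 fold change of the 6 was -0.69, against -0.01 over all genes tested.

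For background, erythroid barcodes, which are not known to use these genes, had a UMI of TNNI1 in 11.1% and 10% of barcodes and of TNNI3 in 11.1% and 0%, at the median depths given above. Progenitors had TNNI1 in 9.52% and 11.7% and TNNI3 in 7.65% and 7.39% of barcodes at a smaller depth. Per UMI, erythroid barcodes had 4.42 and 5.55 CPM of TNNI1 and 4.42 and 0 CPM of TNNI3, from 4 UMI and 1 UMI in all, and the edgeR test against progenitors did not call either (adjusted p = 0.639 and 0.199). On plain CPM the counting intervals were apart in replicate 2, at 1.14 to 16.2 CPM of TNNI1 in erythroid barcodes, against 22.4 to 29.1 CPM in progenitors, and at 0 to 6.83 CPM of TNNI3, against 13.7 to 19.1 CPM. In replicate 1 they overlapped for both genes. The fit scales by TMM, and plain CPM moves the median log2 fold change of all genes in this contrast by -1.69, so whether erythroid barcodes had less of these genes depends on the scaling. How far transcripts from other cells or from neighbouring genes entered the traces was not tested. DNAAF3, next to TNNI3 in the reference annotation, had 5.92 and 6.96 CPM in neural barcodes, and TNNT1 on its other side had 1.02 and 1.34 CPM. MYOZ2 overlaps a long noncoding RNA gene there. The sources used here do not say whether counting used strand or how reads shared by related genes were treated, so values of ACTC1 beside its paralog ACTA1, which had 4.8 and 4.12 CPM in progenitors, and of MYH6 beside MYH7 are uncertain to that extent.

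Within neural barcodes, progenitors and neurons together, the 3 genes were distributed differently. Barcodes with a UMI of FOXA2, a transcription factor of the floor plate, had 33.9 and 34.7 CPM of TNNI1, against 6.63 and 9.33 CPM in those without. For KRT8, a keratin, the values were 54.4 and 48 CPM with it and 12.1 and 16.5 CPM without. After thinning, 5.64% and 6.08% of barcodes with FOXA2 had a UMI of TNNI1, against 1.5% and 0.738% of those without, so the split by FOXA2 was seen at equal depth. Other floor-plate genes did not all split TNNI1 this way. For NTN1 the levels were 18.5 and 21.7 CPM with it and 18.4 and 21.4 CPM without. For SHH they were 29 and 26.9 CPM with it and 16.6 and 20 CPM without, and the counting intervals overlapped in replicate 2. RSPO3, a secreted WNT agonist, also split TNNI1, with 28.1 and 34.6 CPM with it and 15.8 and 17.5 CPM without.

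TNNI3 showed no split by FOXA2, with 15.5 and 14.2 CPM in barcodes with it and 16.5 and 13.5 CPM in those without. Barcodes with a UMI of PAX3, a transcription factor of the dorsal neural tube, had 26.9 and 18.1 CPM of TNNI3, against 10.1 and 12 CPM without. The counting intervals were apart in replicate 1 but overlapped in replicate 2, at 14 to 23.1 CPM with PAX3 and 9.75 to 14.6 CPM without. TNNI1 had the opposite order for PAX3, with 12.5 and 18.1 CPM in barcodes with it and 21.7 and 22.9 CPM in those without, and its intervals too overlapped in replicate 2.

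ACTC1 went with TAGLN, a gene of smooth muscle and contractile stress fibres: barcodes with a UMI of TAGLN had 36.4 and 33.2 CPM of ACTC1, against 7.25 and 7.89 CPM in those without. TNNI1 had 42.7 and 45.1 CPM with TAGLN and 12.4 and 14.6 CPM without, while TNNI3 had 18.8 and 18.6 CPM with it and 15.4 and 12.4 CPM without. Barcodes with the roof-plate gene RSPO2 had 88.5 CPM of ACTC1 in replicate 1, but 92% of those UMI came from 3 barcodes, and in replicate 2 the level was 20.7 CPM.

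**Figure D5:**
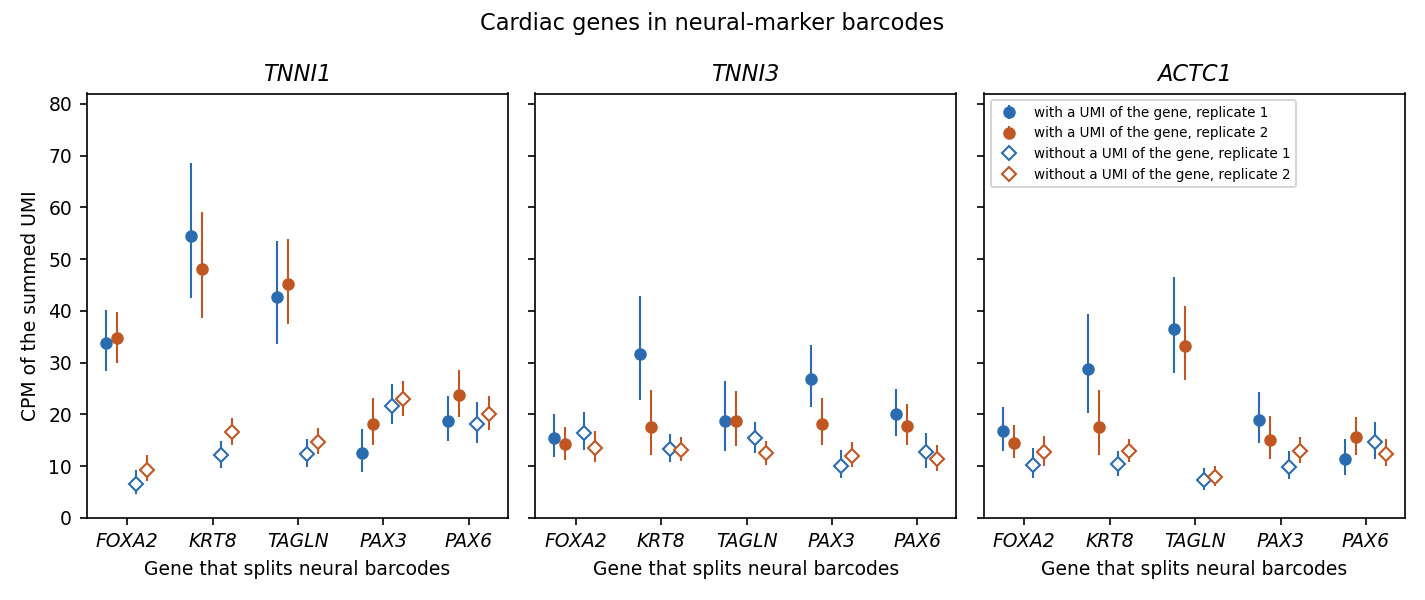
CPM of TNNI1, TNNI3 and ACTC1 in neural barcodes with (filled circles) and without (open diamonds) a UMI of each of 5 genes, per library, with exact 95% Poisson intervals as bars. TNNI1 is higher with FOXA2, KRT8 and TAGLN in both libraries, ACTC1 is higher with TAGLN, and TNNI3 differs little by FOXA2.

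In all, 15 such genes were used to split the neural barcodes, chosen after earlier results were known, and no test was run on the splits. GFP also split them. TNNI1 had 20.1 and 23 CPM in neural barcodes with a UMI of GFP, against 5.82 and 5.01 CPM in those without, and TNNI3 had 17.8 and 14.8 CPM, against 2.91 and 3 CPM. The barcodes without GFP held only 6 and 5 UMI of TNNI1 and 3 and 3 UMI of TNNI3, and they were shallower, with medians of 3872 and 3792 UMI, against 6434.5 and 7446.5 UMI in those with GFP. After thinning, 3.6% and 3.29% of barcodes with GFP and 0.495% and 0.952% of those without had a UMI of TNNI1. What a missing GFP UMI says about a cell at these depths was not tested.

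The traces overlapped in few barcodes. Outside the cardiac barcodes TNNI1 and TNNI3 were found together in 21 and 24 barcodes, which were 14.9% and 11.2% of the barcodes with TNNI1, against 5.06% and 5.29% of those without TNNI1 that held TNNI3. TNNI1 and ACTC1 were found together in 17 and 32 barcodes, 12.1% and 14.9% of those with TNNI1, against 4.12% and 3.71% of the rest. Barcodes with TNNI1 were deeper, with medians of 8178 and 9417 UMI, against 5045 and 5583.5 UMI, and after thinning each pair was left in 2 or 3 barcodes a library, too few to compare. Among progenitor barcodes 4.32% and 4.34% held 2 or more of the 10 genes (exact binomial intervals 3.15% to 5.75% and 3.3% to 5.59%), and after thinning 0.827% and 0.639% did.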

How the data were processed

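Cells of 2 libraries were dissociated, sorted and run on 10x Genomics 3′ v3.1 kits, per the labels' protocols. The deposited table holds the authors' unnormalized UMI counts of 17846 genes in 4437 barcodes, with 504 UMI in the shallowest. The submitters' processing notes name the build bosTau9 and the tools Seurat 4.3.0, R 4.1.2 and Cell Ranger. The prefix of a column gave its library, and 0 columns belonged to other samples. Gene symbols are those of the deposited counts. All 10 were matched in RefSeq's gene table of another assembly, which was used for neighbouring genes, with no coordinates.

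Barcodes with at least 500 genes and 1000 UMI were kept. A barcode joined the list with the largest share of markers at 1 UMI or more, if it reached that list's minimum: 4 of 16 cardiac, 4 of 12 erythroid, 4 of 12 trophoblast (11 in the table), 5 of 12 mesenchyme, 4 of 10 endothelial, 4 of 10 neuron or 3 of 10 neural progenitor markers (9 in the table). No doublet caller was run. Barcodes can hold more than 1 cell, and an alternative kept those that reached only 1 list.

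Summed counts of each group in each library entered the quasi-likelihood test of edgeR 4.0.16 (TMM, filterByExpr) in R 4.3.3, with library as a block because every group was cut from the same 2 libraries. The fit had 10 sums and 4 residual degrees of freedom. At the median gene, edgeR drew the spread wholly from a spread shared across genes, so the gene's own spread between libraries carried no weight. The p-values of edgeR rest on that shared spread between 2 libraries and are smaller than a spread between embryos might allow. The Benjamini-Hochberg adjustment ran over 10820 genes at a threshold of 0.05, leaving out 52 marker genes. limma 3.58.1 and DESeq2 1.42.0 were alternatives. The fit was tested on simulated data.

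The comparisons planned for cardiac over neural and over mesenchyme barcodes had too few barcodes (fewer than 5 a library) for a test. The rule for named genes, which needed an adjusted p, was replaced by a fold of 10 and at least 3 UMI. The contrasts of erythroid, mesenchyme and trophoblast barcodes, the cardiac barcode of replicate 2 and all splits were added after seeing the data. The 10 genes and the lists were chosen with earlier results of these data known. The 95% intervals (Clopper-Pearson for shares, exact Poisson for levels) hold counting error alone. The upper shares given for co-detection took a count of 0 to allow up to 3 counts. For a count of 0 the exact Poisson intervals of levels reach further. numpy 2.4.6, scipy 1.17.1, pandas 2.3.3 and matplotlib 3.10.9 were used. A result that some genes of the lists gave is not reported here.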

Additional observations from a re-analysis of the deposited data

How the results depend on the processing

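The log2 fold changes of the 5 genes tested kept their side of the threshold under the alternatives run, with these exceptions. With limma, MYL7 in mesenchyme (2.09, adjusted p = 0.0811) and TNNI1, TNNI3 and ACTC1 in neurons (-1.31, -1.29 and -0.84, adjusted p = 0.471, 1 and 1) lost their calls, and ACTC1 in trophoblast barcodes gained one (-4.13, adjusted p = 0.0341). With DESeq2, TNNI3 (-1.31, adjusted p = 0.0664) and ACTC1 (-0.79, adjusted p = 0.535) in neurons lost theirs. Over the alternatives with a test, the adjusted p of TNNI1 in neurons ran from 2.23e-07 to 0.471. Genes not called changed sign in some fits with 1 library, such as ACTC1 in mesenchyme, at -0.60 without replicate 1 and 1.87 without replicate 2. The cause was not tested.

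The counts of all genes called in mesenchyme barcodes were 969 higher and 465 lower with limma, against 2818 and 2965 with edgeR. In neurons they were 176 and 14 with limma and 1776 and 975 with DESeq2, against 2675 and 2562. Without the replicate block the neuron counts were 2343 and 2166, and the block changed no call among the 5 genes tested. The libraries pair the sums because each sum is cut from one of them. Plain CPM in place of TMM shifted the median log2 fold change of all genes by -1.69 in erythroid, -0.69 in mesenchyme, -0.71 in trophoblast and -0.18 in neuron barcodes.

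Keeping barcodes that reached only 1 list gave 1241 CPM of MYL7 in erythroid and 400.2 CPM of MYL4 in mesenchyme barcodes. In another alternative the 21 barcodes with 3 or more of the 10 genes were left out, the cardiac barcode of replicate 2 among them. This gave 1338 CPM of MYL7 in erythroid barcodes and 14.9 CPM of ACTC1 in progenitors. The share of neural barcodes with 2 or more of the 10 genes was 3.34%, against 3.67% with them. That share had to fall, because the barcodes were left out by the same genes. Leaving out either library gave 1250 to 1288 CPM of MYL7, 354 to 365 CPM of MYL4, 22.4 to 25.6 CPM of TNNI1, 16.2 to 19.8 CPM of TNNI3 and 15.3 to 15.5 CPM of ACTC1 in those groups. No alternative gave 5 cardiac barcodes a library, so the cardiac comparisons were not run under any. The fold change of TNNI3 could not be given without replicate 2, where it did not pass the filter. All cardiac levels rest on 1 barcode a library, and that of replicate 2 is shallow.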
